A study of Rattus norvegicus with 4 samples.

Results

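The genes that encode the proteins of the cytosolic ribosome were followed over 4 doses of hydrogen peroxide (H2O2) in NRK-52E, an established epithelial cell line from the rat kidney tubule. They were chosen by name: current rat symbols made of Rpl or Rps and a number, with Rplp0, Rplp1, Rplp2 and Rpsa, and without pseudogenes or the Rps6k kinases. RefSeq's rat gene table holds 78 such symbols, and 63 of them had a probe that could be matched by its RefSeq accession. The other 15 were not analysed here. All 63 were well above background on all 4 arrays by the scanner software's own call, so the requirement of such a signal on at least 1 array removed none of them. They comprise 36 large subunit and 27 small subunit genes, among 6028 named genes and 23767 features (a named gene, or a probe without a gene name) detected on at least 1 array.

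The study recorded expression after H2O2 had induced cell death. Confluent cultures received 0 (control), 0.003, 0.006 or 0.009% H2O2 in medium for 1 h, were rinsed, and then spent 12 h in medium that lacked serum, the control included. Total RNA of 1 culture for each dose was labelled with a single dye (Cy3) and hybridised to 1 Agilent array, so there were no replicates and no value has a replicate check. The arrays shared 1 slide and 1 scan and sat on the slide in dose order, so position and dose cannot be told apart. In RNA from whole cultures, fewer cells of a type and less RNA per cell cannot be told apart either.

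The ribosome translates mRNA into protein, and its small subunit reads the mRNA while its large subunit joins the amino acids. Cells need nearly every ribosomal protein in equal number, and these mRNAs are among the most abundant in dividing mammalian cells. In vertebrates they begin with a C followed by a run of pyrimidines, the terminal oligopyrimidine (TOP) tract, through which the kinase mTOR and the protein LARP1 govern their translation and storage.

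The start-site tract was looked for in RefSeq's promoter table (GRCr8 assembly), which held 52 promoters for 51 of the 63 genes. A C at the annotated start followed by at least 4 bases that were each C or T, on the gene's own strand, stood in 21 of the 52 promoters (40.4%), against 2.63% of all 33469 promoters in the table. With a tract allowed to begin within 10 bases of the annotated start, 39 of the 52 promoters held it (75%), against 28.9% of all promoters. The 6 windows below, of 35 bases each, belong to the gene with the smallest difference at the highest dose (Rplp0), to the members of the 5 largest that have a tract at the start (Rpl35a, Rpl14), to the gene measured by repeated spots (Rplp1), and to the genes with the longest tracts, of 12 bases (Rpl10, Rpl31). Capitals mark the tract, whose first letter is the annotated start.
Rplp0, chr12:46718371-46718405, minus strand: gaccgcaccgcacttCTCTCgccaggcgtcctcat
Rpl35a, chr11:81235002-81235036, minus strand: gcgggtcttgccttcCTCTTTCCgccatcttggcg
Rpl14, chr8:129163605-129163639, plus strand: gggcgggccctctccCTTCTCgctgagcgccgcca
Rplp1, chr8:71290853-71290887, minus strand: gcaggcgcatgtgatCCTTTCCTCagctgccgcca
Rpl10, chrX:157205835-157205869, plus strand: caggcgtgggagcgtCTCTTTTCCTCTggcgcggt
Rpl31, chr9:49143096-49143130, plus strand: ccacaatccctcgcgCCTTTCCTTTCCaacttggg
A match to these letters is a description of the annotated start and not a shown regulatory site, and its absence from a window says only that the letters are not at that position.

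Signals were compared on a pair of scales. On the 75th percentile scale, a probe's signal is divided by the 75th percentile of its array, so a value of 100 stands for 100 times that percentile. On the spike-in scale, signals are set so that 8 E1A spike-in probes, which detect control RNA foreign to the rat, keep the same mean log2 level on every array. Relative to the control array, the spike-ins were brighter by 0.08, 0.36 and 0.62 on the log2 scale at 0.003, 0.006 and 0.009%, while the 75th percentile itself was lower on each array than on the one before it (180.3, 167.5, 158.1 and 121.2 units from control to 0.009%). The spike-in scale therefore lies below the 75th percentile scale by 0.19, 0.55 and 1.19 on the log2 scale at the 3 doses. The sources used here do not give the amounts of RNA and of spike-in, and which scale is nearer to RNA per cell was not tested. The keratins Krt8, Krt18 and Krt19 and the claudin Cldn3 were well above background in the control, 4 of 8 epithelial markers (Cdh1, Epcam, Cldn4 and Cldn7 were not), as were 4 of 6 proximal tubule markers (not Cubn and Slc34a1).

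Relative to the 75th percentile, mRNAs of the ribosomal proteins stood higher in the treated cultures than in the control, by a median that was larger at each higher dose on this scale. Their median log2 difference from control was 0.37 at 0.003%, 0.50 at 0.006% and 0.71 at 0.009% (SD over the 63 genes 0.17, 0.16 and 0.19), or 1.29, 1.42 and 1.63-fold. The medians over all features were 0.03, 0.08 and 0.16. Scaled to the spike-ins, the same 63 mRNAs had medians of 0.18, −0.05 and −0.48, against −0.16, −0.48 and −1.03 over all features. The median for the ribosomal protein genes thus lay above that of all features by 0.34, 0.42 and 0.55, a gap that the spike-in scale leaves as it is because both scales differ by 1 constant per array, whereas the sign of the median at the upper 2 doses depended on the scale. Other scalings gave no increase with dose or a small one: the medians were 0.22, 0.19 and 0.15 with arrays scaled to their median, and 0.12, 0.13 and 0.15 after quantile normalization. The gap at 0.009% was 0.19 after quantile normalization and 0.28 after normexp background correction.

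The 3 comparisons with the control use the same control array. On the 75th percentile scale 62 of 63 genes lay above control at 0.003% (51.5% of all features did), 63 at 0.006% (53.5%) and 63 at 0.009% (57.9%). The gene below control at 0.003% was Rpl3, by 0.01. At least 1.5-fold higher than control were 8 genes at 0.003% (26.6% of all features), 21 at 0.006% (27.2%) and 46 at 0.009% (31.4%), while at least 1.5-fold lower there were none at any dose (24.5, 21.5 and 17.4% of all features). On this scale the 63 genes, except Rpl3 at 0.003%, thus lay above control at each dose. At 0.003% a smaller share of them than of all features passed 1.5-fold. Differences of 2-fold or more were seen for 0, 0 and 2 genes (15.2, 15 and 16.5% of all features), the 2 being Rps15a and Rpl35a.

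On the spike-in scale 53 of 63 genes lay above control at 0.003% (43.4% of all features) and 27 at 0.006% (28.4%). At 0.009% all 63 lay below control (88.4% of all features). Of these, 19 were at least 1.5-fold lower (69.3%) and 2, Rplp0 and Rpl3, were at least 2-fold lower (51.3%). On this scale most ribosomal protein genes were thus lower than control at 0.009%, as most features were, and a smaller share of them than of all features was lower by 1.5-fold or more.

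**Figure D1:**
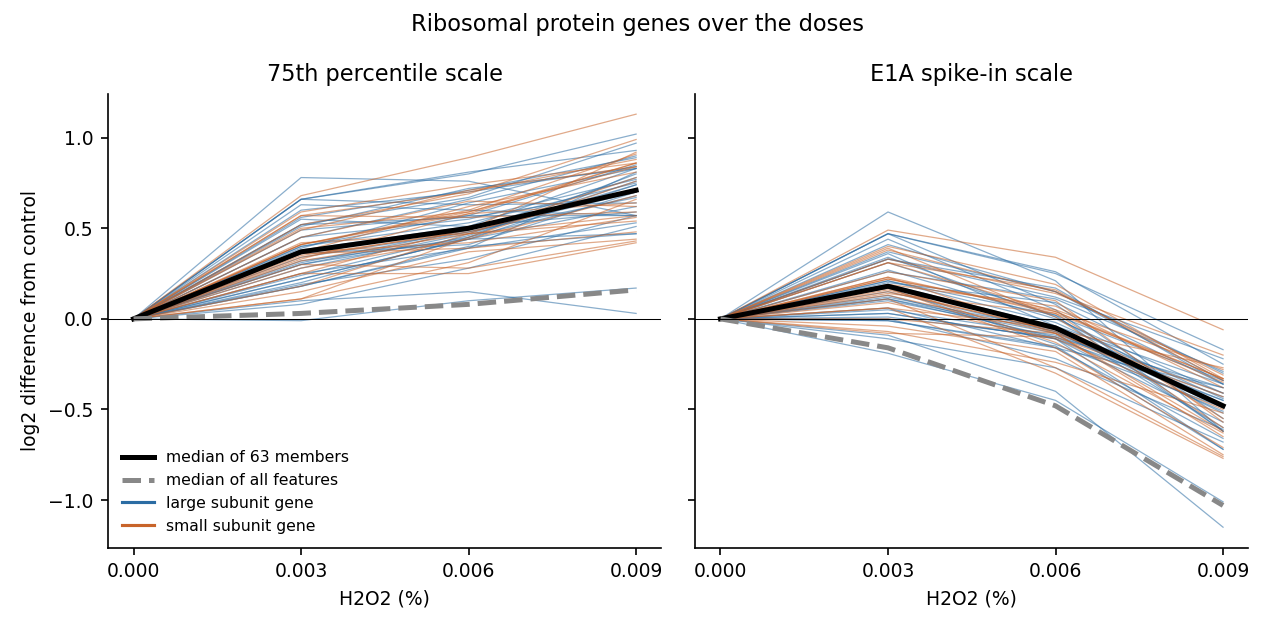
Log2 difference from the control array (vertical axis) against H2O2 dose in percent (horizontal axis) for each of the 63 ribosomal protein genes, 1 thin line for each gene, on the 75th percentile scale (left) and the spike-in scale (right). Thick lines are the median of the 63 genes, which reaches 0.71 on the left and −0.48 on the right at 0.009%, and dashed lines the median of all features (0.16 and −1.03).

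The order of the doses, by the brightest probe of each gene, was the same for most genes. On the 75th percentile scale, 54 of 63 genes (85.7%) were higher on each array than on the array of the next lower dose, against 17.8% of all features. Among the treated arrays alone, which leaves out the shared control, 55 of 63 (87.3%) increased at both steps, against 46.2% of all features. The 0.009% array was the highest of the 4 for 58 genes (92.1%; 34.9% of all features). The order among the treated arrays turned round on the spike-in scale, where all 63 genes decreased at both steps (69.5% of all features) and 0.009% was the lowest array for all 63 (80.1%).

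A comparison of 0.009% with 0.003% does not use the control. On the 75th percentile scale its median over the 63 genes was 0.36, with 59 genes higher at 0.009% (58.7% of all features), and 3 genes were at least 1.5-fold higher (29.4%). The 4 genes lower at 0.009% than at 0.003%, named here because of their values, were Rpl4, Rpl6, Rpl18 and Rplp0, all of the large subunit. With the spike-ins as the scale the median was −0.64, all 63 genes were lower at 0.009% (87.7% of all features) and 40 were at least 1.5-fold lower (62.6%).

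The genes with the largest differences at 0.009% were Rps15a, Rpl35a, Rps23, Rpl14 and Rpl38. Rps15a, a small subunit protein, read 335 in the control and 538, 620 and 732 times the 75th percentile at 0.003, 0.006 and 0.009%. Its log2 differences from control were 0.68, 0.89 and 1.13 on the 75th percentile scale, and 0.49, 0.34 and −0.06 on the spike-in scale. Each array thus lay above the one before it on the first scale, while on the spike-in scale Rps15a came back to within 0.06 of control at the highest dose, the nearest of the 63 genes. A separate Rps15a probe gave 0.81, 1.05 and 1.15 on the 75th percentile scale.

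Rpl35a, a large subunit protein mutated in some patients with Diamond-Blackfan anaemia, read 27.7 in the control and 43.9, 48.3 and 56.1 at the 3 doses. Its log2 differences on the 75th percentile scale were 0.66, 0.80 and 1.02, and its other probe gave 0.73, 0.75 and 0.70. Both the 2-fold difference of this gene and its increase at each dose thus rest on the brighter probe. Rps23, which lies at the decoding centre of the small subunit, read 561, 804, 906 and 1110 from control to 0.009% (log2 difference 0.99 at 0.009%). Rpl14 read 454, 651, 720 and 885 (0.97). Rpl38, a large subunit protein needed in the mouse embryo for translation of certain Hox mRNAs, read 149, 234, 260 and 284 (0.93). By their brightest probes, all of these 5 were higher at each dose than at the one below it on the 75th percentile scale. All 5 lay below control at 0.009% on the spike-in scale, by 0.06 for Rps15a and 0.25 for Rpl38 at the ends of their range.

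At the other end stood Rplp0, Rpl3, Rps3 and Rps4x. Rplp0, which anchors the stalk of the large subunit where elongation factors dock, read 22.0 in the control and 23.6, 24.5 and 22.5 at the 3 doses. Its log2 differences were 0.10, 0.15 and 0.03 on the 75th percentile scale and −0.09, −0.40 and −1.15 on the spike-in scale, the lowest of the 63 at 0.009% on both. All 3 treated arrays of Rplp0 lay within the spot error of 0.20 of the control on the 75th percentile scale. Rpl3, a core large subunit protein near the site of peptide bond formation, read 75.9, 75.7, 81.2 and 85.7 from control to 0.009% (−0.01, 0.10 and 0.17). It too lay within its spot error at every dose on that scale.

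Rps3, which lines the mRNA entry of the small subunit and also has reported roles in DNA repair, read 332, 394, 395 and 444, with log2 differences of 0.25, 0.25 and 0.42. Rps4x, the X-linked copy of its gene, read 101, 112, 130 and 137 (0.15, 0.37 and 0.44). On the 75th percentile scale Rplp0 and Rpl3, each measured by 1 probe, thus stood apart at 0.009%. The other 61 genes ran from 0.42 for Rps3 to 1.13 for Rps15a. After quantile normalization Rps3 (−0.23) lay below Rpl3 (−0.16) and Rplp0 (−0.05).

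**Figure D2:**
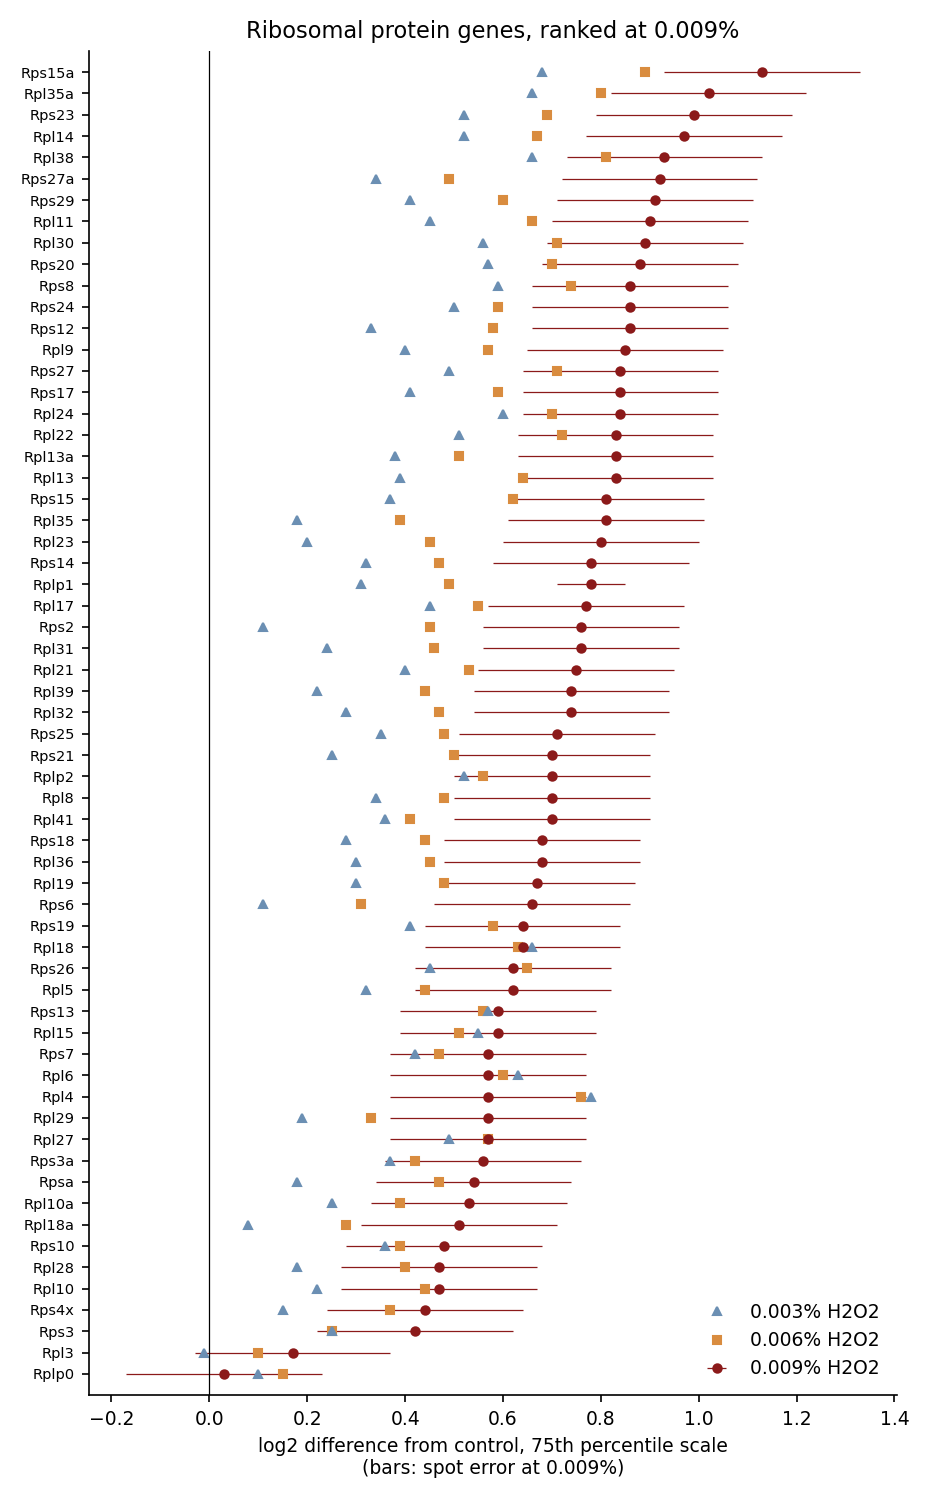
Log2 difference from control on the 75th percentile scale (horizontal axis) of 62 of the 63 genes at 0.003% (triangles), 0.006% (squares) and 0.009% (circles), sorted by the value at 0.009%. Bars are the spot error at 0.009%; Rplp0 (0.03) and Rpl3 (0.17) stand apart at the bottom and Rps15a (1.13) is at the top.

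The acidic proteins that bind Rplp0 to complete the stalk did not share its values. Rplp1 read 686 in the control and 851, 962 and 1180 at the 3 doses, and its probe is printed 10 times on each array. The SD over those spots was 0.15, 0.15, 0.12 and 0.10 on the log2 scale from control to 0.009%, beside differences of 0.31, 0.49 and 0.78 from control. Single spots of the 0.003% array (751 to 988) overlapped those of the control (568 to 821), whereas the spots at 0.006% (866 to 1120) and 0.009% (1100 to 1330) all lay above them. This is the spread within 1 array and says nothing of the spread between cultures. Rplp2 read 281, 403, 414 and 454, with log2 differences of 0.52, 0.56 and 0.70. At 0.009% the difference from control was thus 1.72-fold for Rplp1 and 1.62-fold for Rplp2, and 1.02-fold for Rplp0.

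Rpl5 and Rpl11 form a complex with the smallest ribosomal RNA of the large subunit, and the free complex binds Mdm2, the ubiquitin ligase of p53, when ribosome assembly is disturbed. Rpl5 read 144, 181, 196 and 221 from control to 0.009% by its brightest probe, with log2 differences of 0.32, 0.44 and 0.62. Its other probes gave 0.48, 0.44 and 0.51, and 0.53, 0.48 and 0.47, so its increase at each dose rests on the brightest probe. Rpl11 read 260, 354, 412 and 486, with 0.45, 0.66 and 0.90. The pair lay on the same side of control at every dose, Rpl11 by the larger amount, with a spot error of 0.20 on each difference.

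Rpl13a, known in human monocytes to leave the ribosome and silence inflammatory mRNAs, read 231, 300, 328 and 411 (0.38, 0.51 and 0.83). Rps6, the small subunit protein phosphorylated by the S6 kinases downstream of mTOR, read 686, 743, 851 and 1090 (0.11, 0.31 and 0.66). Rps19, the gene most often mutated in Diamond-Blackfan anaemia, read 142, 189, 213 and 222 (0.41, 0.58 and 0.64). These 3 differed in where the dose steps lay: most of the Rps19 difference was present at 0.003%, whereas most of the Rps6 difference appeared only between 0.003 and 0.009%. Each had a single culture behind each dose, and whether the steps differ was not tested.

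Rpsa, a small subunit protein also described as a laminin receptor, read 46.8, 53.2, 64.8 and 68.2 (0.18, 0.47 and 0.54). Rps27a is made as a fusion of ubiquitin to a small subunit protein, and read 203, 257, 285 and 384 (0.34, 0.49 and 0.92). Fau, a related fusion gene outside the naming pattern that joins a ubiquitin-like protein to a small subunit protein, followed the same order and read 317, 434, 504 and 584 (0.45, 0.67 and 0.88). Rpl36al1, a paralogue of Rpl36a, read 115, 159, 156 and 170 (0.47, 0.44 and 0.56).

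Genes of the large and small subunit could not be told apart by their medians. On the 75th percentile scale the medians were 0.37, 0.50 and 0.72 for the 36 large subunit genes and 0.37, 0.50 and 0.71 for the 27 small subunit genes at 0.003, 0.006 and 0.009%. At 0.009% the spike-in scale gave −0.47 for the large and −0.48 for the small subunit. The large subunit had the wider range at 0.009%, from 0.03 to 1.02 on the 75th percentile scale, against 0.42 to 1.13 for the small subunit, since both low genes, Rplp0 and Rpl3, belong to it. The 21 genes with a pyrimidine tract at the annotated start had a median of 0.76 at 0.009% (0.03 to 1.02), and the 30 genes with a promoter but no tract there had 0.70 (0.17 to 1.13), so the ranges overlapped almost entirely.

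The narrowness of the set is a further feature. The interquartile range of the 63 differences was 0.26, 0.18 and 0.27 log2 units at the 3 doses. Ribosomal protein probes are bright, and 62 of the 63 genes (all but Rps26) belonged to the brightest 10% of features by mean signal. The other 2315 features of that class had an interquartile range of 0.91, 0.87 and 0.80, with medians of 0.21, 0.19 and 0.24 on the 75th percentile scale and 0.02, −0.36 and −0.95 on the spike-in scale. Bright features as a class thus also lay above all features on both scales, by less than the ribosomal protein genes did, and the part of brightness in the result was not tested. Across the 63 genes the Pearson correlation of mean signal with the difference from control was −0.08, 0.00 and 0.41 at 0.003, 0.006 and 0.009%, given as a description since all points share the same arrays. No spot of these genes was saturated on any of the 4 arrays. The brightest spike-in, at 124000 units in the control and 166000 at 0.009%, nevertheless differed by 0.42, and the others by 0.60 to 0.71. The highest signal among the 63 genes was 155000 units. Whether differences of the brightest genes were compressed was not tested.

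**Figure D3:**
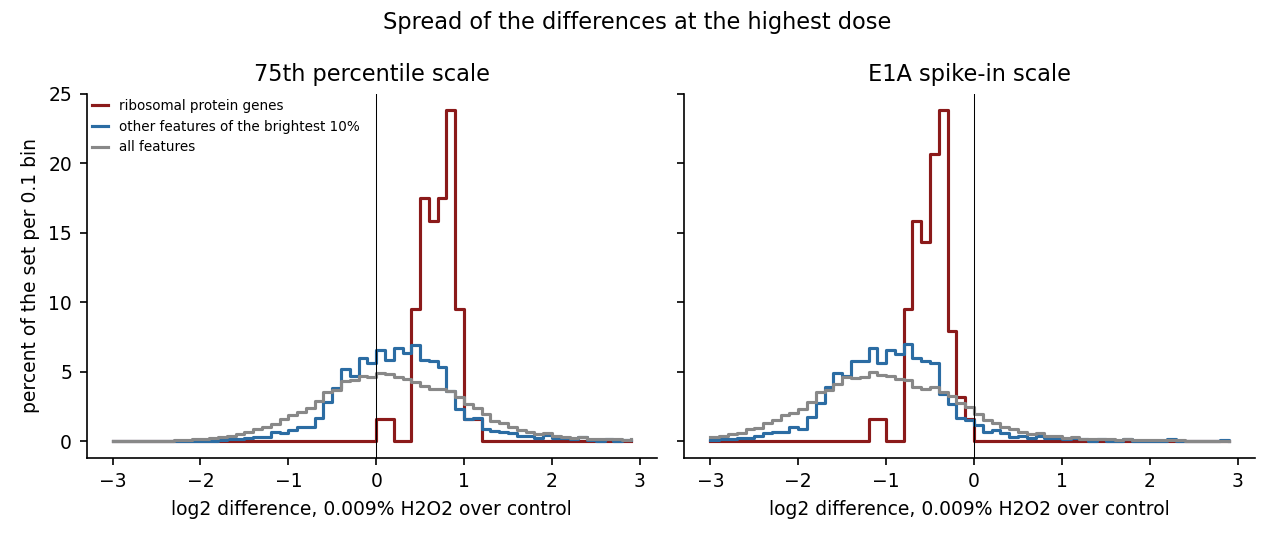
Share of genes or features, in percent for each bin of 0.1 (vertical axis), by log2 difference between 0.009% H2O2 and control (horizontal axis), on the 75th percentile scale (left) and the spike-in scale (right). The 63 ribosomal protein genes form a narrow peak (median 0.71 left, −0.48 right) inside the much wider distributions of the other features of the brightest 10% (0.24, −0.95) and of all features (0.16, −1.03).

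Measured against the error of single spots, as the scanner software estimates it (median 0.20 for a log2 difference), 27, 51 and 61 of 63 genes lay above control by more than 2 errors at 0.003, 0.006 and 0.009% on the 75th percentile scale, where 27.8, 27.5 and 29.6% of all features did. Under spike-in scaling 7, 0 and 0 genes lay above control by that margin (21.3, 12.0 and 3.63% of all features), and 0, 1 and 40 lay below (32.8, 46.4 and 69.3%). The estimate was 0.20 for each of the 63 genes except Rplp1 (0.07 at 0.009%), so the margin acts much like a fixed rule of size. This error covers the spot alone and neither the culture nor the scaling. The summed signal of the 63 genes made up 8.09% of that of all features in the control and 9.25, 9.79 and 10.6% at 0.003, 0.006 and 0.009%, a share that no scaling factor of an array can alter.

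Different probes of the same gene gave like values at 0.009%, though not always the same order of doses. The other probes of Rpl35a and Rpl5, for example, did not increase at each dose. For 20 of the 63 genes the array holds several probes, and at 0.009% the probes of a gene differed by a median of 0.15 and at most by 0.46 (Rpl28) on the log2 scale. The spread between probes was summarised at that dose only. At 0.003% the brighter Rpl15 probe gave 0.55 and the dimmer −0.15, and those of Rpl13 gave 0.39 and 0.76. The 29 probes not used for their gene had medians of 0.39, 0.49 and 0.63 on the 75th percentile scale, and 28, 29 and 29 of them lay above control at the 3 doses.

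**Figure D4:**
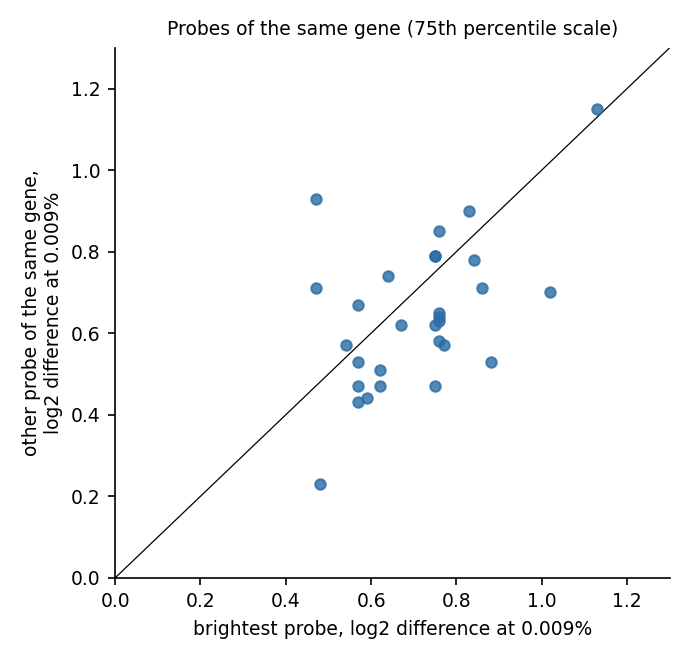
Log2 difference between 0.009% H2O2 and control on the 75th percentile scale for the brightest probe of a gene (horizontal axis) and for each other probe of the same gene (vertical axis), 29 points for 20 genes, with the line of equality. Every point lies above 0 on both axes.

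A straight-line trend over dose was fitted to all 23767 features with limma, on 4 arrays and 2 residual degrees of freedom. No feature, and so none of the 63 genes, passed a Benjamini-Hochberg adjusted p of 0.05 on either scale. Slopes were positive for all 63 genes on the 75th percentile scale and for none on the spike-in scale. The slopes of all features also shifted between the scales. The median slope per dose step was 0.24 for the 63 genes and 0.07 for all features on the 75th percentile scale. It was −0.16 and −0.33 on the spike-in scale. At an unadjusted p under 0.05 the fit on the 75th percentile scale had 8 of the 63 genes (12.7%, against 15.4% of all features), and the fit on the spike-in scale had 2 (3.17%, against 38.9%), Rplp0 and Rpl3. The lowest adjusted p among the 63 from limma was 0.302 (Rps15a) on the 75th percentile scale and 0.111 (Rplp0) on the spike-in scale. No dose trend was thus established for any of the 63 genes, whose shared direction is a description of 4 arrays.

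Related gene lists were set beside the ribosomal protein genes. Factors that assemble ribosomes and transcribe ribosomal RNA had their largest differences from control at 0.003 and 0.006%. The 35 measured genes of that list (of 69) had medians of 1.48, 1.47 and 0.95 at 0.003, 0.006 and 0.009% on the 75th percentile scale, and 34, 33 and 27 of them were at least 1.5-fold higher than control (26.6, 27.2 and 31.4% of all features). The spike-in scale gave medians of 1.29, 0.92 and −0.23, with 32, 26 and 5 of 35 higher by that much (20.8, 12.4 and 4.35% of all features). Between 0.009% and 0.003% their median was −0.60 on the 75th percentile scale. Of the 35 genes, 34 were lower at 0.009% (9335 of 22586 features were) and 18 were at least 1.5-fold lower (15.9% of all features). The ribosomal protein genes had a median of 0.36 there and none lower by that much. Spike-in scaling gave −1.60 for the assembly list and −0.64 for the ribosomal protein genes, with 35 of 35 and 40 of 63 at least 1.5-fold lower (62.6% of all features). With arrays scaled to their median the ribosomal protein genes had −0.06. These medians are given side by side, and the difference between the lists was not tested.

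Within the assembly list Gnl3 (nucleostemin, a nucleolar GTPase) and Nop56 (a core protein of the particles that methylate ribosomal RNA) were highest at 0.009%. Gnl3 read 27.6, 128, 142 and 122 from control to 0.009%, with log2 differences of 2.22, 2.36 and 2.14. Nop56 read 5.72, 28.5, 30.5 and 24.9 (2.32, 2.42 and 2.12). Lowest were Polr1c, a subunit shared by RNA polymerases I and III, and Ftsj3, a methyltransferase of ribosome assembly. Polr1c read 58.9, 92.6, 69.8 and 44.0 (0.65, 0.24 and −0.42), and Ftsj3 read 0.351, 0.798, 0.705 and 0.402 (1.19, 1.01 and 0.20). For all 4 the 0.009% array was below the 0.006% array.

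Other mRNAs known in mammals to carry a TOP tract, 16 measured of 24, had medians of 0.45, 0.45 and 0.56 on the 75th percentile scale and −0.63 at 0.009% on the spike-in scale. They had a median of 0.01 between 0.009% and 0.003% on the 75th percentile scale, beside 0.36 for the ribosomal protein genes. Highest in this list were Npm1, the nucleolar protein nucleophosmin (1.28, 1.28 and 1.15), and Btf3, which binds nascent chains at the ribosome (0.92, 0.94 and 0.89). Lowest were Vim, the intermediate filament protein vimentin (−0.57, −0.39 and −0.18), and Rack1, a scaffold bound to the small subunit (0.20, 0.14 and 0.08). Rack1, although a stoichiometric part of the ribosome, thus read close to control on the 75th percentile scale, as Rplp0 did, while the spike-in scale gave −1.11 for Rack1 and −1.15 for Rplp0 at 0.009%.

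Mitochondrial ribosomal proteins make a separate ribosome for the proteins encoded in mitochondrial DNA. The 24 measured of 118 had medians of −0.03, −0.08 and 0.16 on the 75th percentile scale, near those of all features, and −1.03 at 0.009% on the spike-in scale. Lowest were Mrpl41 (−0.33, −0.74 and −0.67) and Mrpl2 (−0.49, −0.76 and −0.60), and highest Mrpl40 (0.57, 0.56 and 0.90) and Mrpl47 (1.19, 1.01 and 0.63). Values of this list spread to either side of control, with 14 of 24 above it at 0.009% on the 75th percentile scale (57.9% of all features), where all 63 cytosolic genes were above.

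**Figure D5:**
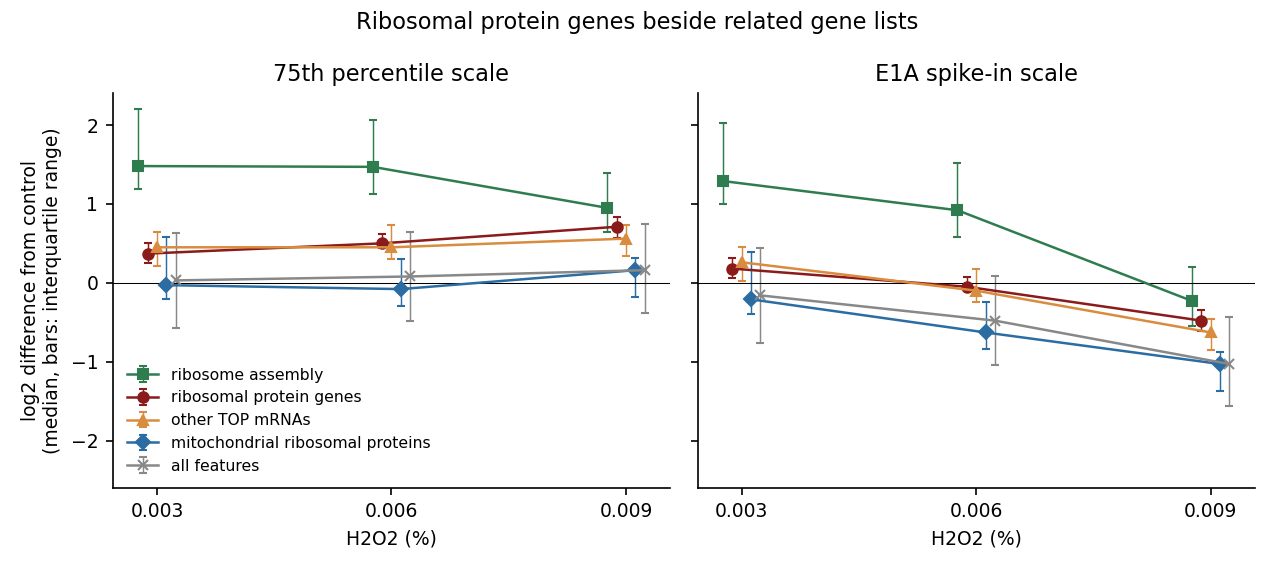
Median log2 difference from control (vertical axis; bars span the interquartile range of each list) at 0.003, 0.006 and 0.009% H2O2 (horizontal axis) for ribosome assembly genes, ribosomal protein genes, other TOP mRNAs, mitochondrial ribosomal proteins and all features, on the 75th percentile scale (left) and the spike-in scale (right). Ribosome assembly genes have their lowest median at 0.009% on the left (0.95) while ribosomal protein genes have their highest there (0.71).

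Genes of ribosome stress and quality control and of the mTOR pathway spread widely, with medians over 10 measured genes (of 20) of 1.03, 0.94 and 0.54 on the 75th percentile scale. Mtor, the kinase itself, read 0.358, 0.160, 0.129 and 0.107 from control to 0.009% (−1.17, −1.48 and −1.74). Eif4ebp2, a repressor of translation that mTOR inactivates, read 5.25, 3.88, 3.02 and 2.33 (−0.44, −0.80 and −1.17). Highest were Cdkn1a, the p53 target that halts the cell cycle (4.09, 4.09 and 3.70), and Myc, a transcription factor that drives ribosome production (2.73, 3.06 and 2.98). These 4 kept their side of control at every dose on the spike-in scale too, where Mtor read −2.93, Eif4ebp2 −2.36, Cdkn1a 2.51 and Myc 1.79 at 0.009%.

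Markers of other cell types moved as well. The fibroblast collagens Col1a2 and Col3a1, 2 of the 4 fibroblast markers on the array that were well above background in the control (Dcn and Lum were not), had a summed level of 28.6 in the control and 8.44, 12.2 and 17.8 at the 3 doses. The leukocyte markers Cd68, Cd14 and Adgre1 (Csf1r was not well above background) summed to 42.1, 27.2, 22.4 and 23.4, the epithelial list to 59.9, 56.8, 45.2 and 39.0, and the proximal tubule list to 4.02, 2.33, 2.54 and 2.95. The endothelial list rested on Kdr alone (0.107, 0.202, 0.246 and 0.322), as Pecam1 was not well above background. These sums rest mostly on 1 or 2 genes each. Krt8 made up 59.2 of the epithelial sum in the control and read 55.8, 43.6 and 36.9 at the 3 doses, while Krt18 read 0.0646, 0.300, 0.436 and 0.552 and Cldn3 0.135, 0.162, 0.179 and 0.234. Aqp1 and Ggt1 made up most of the proximal tubule sum, and Hnf4a read 0.101, 0.137, 0.185 and 0.241. Krt18, Cldn3, Hnf4a, Kdr and Cd68 (2.23, 2.71, 3.87 and 4.12) were thus each higher on every array than on the one of the dose before. This was the order of most ribosomal protein genes on this scale, and of 17.8% of all features. Krt8, Krt19, Aqp1, Ggt1, Cd14, Adgre1, both collagens and Lrp2 (well above background on the control array alone) did not follow it. On the spike-in scale none of the markers that followed it increased at each dose. Krt18, Cldn3, Hnf4a and Kdr were dim, reading below the 75th percentile on every array. In the control that percentile was 180.3 units and the lowest well-above-background signal 10.2. Their spot errors at 0.009% were 0.34, 0.28, 0.10 and 0.30. The part of any of these markers in the result was not tested.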

How the data were processed

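Per the file headers, the authors' scanner software was Agilent Feature Extraction, version 10.7.3.1 (GE1_107_Sep09 protocol, 014879 array design), and the deposited spot values are background-subtracted intensities not scaled across arrays. Values of the authors' deposited table are linear ratios: 100% of 41012 probes equalled the mean processed signal over the array median, within 1e-06 (column medians 0.962, 0.955, 0.965 and 0.972). It served as an alternative, though it largely repeats array median scaling.

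From these intensities, outlier spots were removed, log2 signals of a probe's spots were averaged, and the log2 75th percentile of noncontrol spots, or the mean of 8 E1A spike-in probes, was subtracted. A gene took its brightest probe. Of 41012 probes 41007 were used and 10835 named, by RefSeq accession against GRCr8 (array annotation rn4). Features entered a comparison of 2 arrays if either array had them well above background. A side that was not took its own signal or, if larger, the lowest well-above-background signal of its array. The spot error was propagated. Precision is limited by the number of arrays.

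With 1 array for each dose, no p-value was computed for a dose, and at least 1.5-fold or 2-fold is a rule of size. The dose trend used limma 3.58.1 in R 4.3.3, and other steps used Python 3.11.15. Simulated data served only to check that the trend fit recovers set slopes. Those slopes were larger than the slopes of the 63 genes, with less noise than the real fit had on average. The simulation therefore does not show the power of the trend fit here. The files lack the mean signal that the planned normexp alternative (offset 50) named, so the median signal was used. Alternatives were other scalings, normexp, the authors' table, a filter on all 4 arrays, the mean of a gene's probes, outlier spots kept, a trend prior that varies with intensity, and, added after seeing the data, the 4 brightest spike-ins.

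The members and lists were chosen with earlier results of these data known. Named were 11 genes set by hand, the 5 highest and 5 lowest at 0.009%, and the 2 highest and 2 lowest of each related list; a few of these are not reported here. Genes with members of near-identical sequence or processed pseudogenes cannot be separated by hybridisation.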

Additional observations from a re-analysis of the deposited data

How the results depend on the processing

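The direction of the ribosomal protein genes depended on the scaling. The authors' deposited table is itself scaled to the array median, so its values repeat those of array median scaling and are no separate check. Their median difference from control at 0.003% stayed positive under every alternative, the lowest being 0.12 under quantile normalization. At 0.006%, where the main value was 0.50, it was 0.19 under array median scaling and in the authors' deposited table, 0.13 under quantile normalization, −0.05 on the spike-in scale and −0.02 with the 4 brightest spike-ins, a scaling added after seeing the data. At 0.009% (main value 0.71) it was 0.15 under array median scaling, in the authors' deposited table and under quantile normalization, 0.50 after normexp, −0.48 on the spike-in scale and −0.44 with the 4 brightest spike-ins. For 0.009% over 0.003% (0.36) it was −0.06 under array median scaling and in the authors' deposited table, 0.03 under quantile normalization, −0.64 on the spike-in scale and −0.61 with the 4 brightest spike-ins. Of 63 genes, 46 were at least 1.5-fold higher at 0.009% in the main setting, 21 after normexp, 3 under quantile normalization and 0 under the other scalings. The count at least 1.5-fold lower was 0 in the main setting, 19 on the spike-in scale and 12 with the 4 brightest spike-ins. These scalings moved the median of all features too: at 0.009% by −0.56 (array median), −1.19 (spike-in) and −0.20 (quantile). The median of the 63 genes minus that of all features at 0.009% was 0.55 in the main setting. Array median and both spike-in scalings shift each array by a constant, so they necessarily give 0.55 too. The gap was 0.64 with the filter on all 4 arrays, 0.28 after normexp and 0.19 under quantile normalization.

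On the spike-in scale and, in brackets, with the 4 brightest spike-ins, the 18 named genes at 0.009% were Rps15a −0.06 (−0.02), Rpl35a −0.17 (−0.13), Rps23 −0.20 (−0.16), Rpl14 −0.22 (−0.18), Rpl38 −0.25 (−0.21), Rps27a −0.27 (−0.23), Rpl11 −0.29 (−0.24), Rpl13a −0.36 (−0.32), Rplp1 −0.41 (−0.37), Rplp2 −0.49 (−0.45), Rps6 −0.52 (−0.48), Rps19 −0.55 (−0.51), Rpl5 −0.57 (−0.53), Rpsa −0.65 (−0.60), Rps4x −0.75 (−0.71), Rps3 −0.77 (−0.73), Rpl3 −1.01 (−0.97) and Rplp0 −1.15 (−1.11). Under array median scaling and in the authors' deposited table, Rplp0 was −0.53, Rpl3 −0.39, Rps3 −0.14, Rps4x −0.12 and Rpsa −0.02. Under quantile normalization Rps3 was −0.23, Rpl3 −0.16, Rps6 −0.06, Rplp0 −0.05 and Rps4x −0.03, and after normexp Rplp0 was −0.13 and Rpl3 −0.02. The filter on all 4 arrays could change none of these values, since all 63 genes pass it. The mean of a gene's probes, which can alter only the 20 genes with several probes, changed no direction. Keeping outlier spots changed none either.

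The limma trend called 0 of the 63 genes under every setting run. At an unadjusted p under 0.05, with the share of all features in brackets, it had 46 with a prior that varies with intensity (16.3%), 21 after normexp (17.4%), 8 in the main setting (15.4%), 6 with the mean of a gene's probes (15.3%), 2 on the spike-in scale (38.9%), 0 under array median scaling (16.9%) and 0 under quantile normalization (11.6%). No paired analysis was possible because each dose has 1 array, and leaving out a replicate was likewise not possible. Signal over background did not limit these genes, which were well above background on all arrays.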
